A study of Mus musculus with 4 samples.

Results

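Notch signalling was followed through 10 genes in SVEC4-10 cells, a mouse endothelial line transformed with SV40. They were the 4 receptor genes Notch1, Notch2, Notch3 and Notch4, the 4 ligand genes Dll1, Dll4, Jag1 and Jag2, and the 2 target genes Hes1 and Hey1. The genes were listed by name and found by their symbol in the platform annotation, which gave 19 probe sets with that symbol alone, out of 18193 genes in all. A gene with several probe sets is represented by the one with the highest mean over the 4 arrays, called its main probe set.

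The series has 4 arrays in 4 groups, 1 array each. In the first, cells carried a lentiviral vector expressing a short hairpin RNA against Mical2, and in the second the same backbone expressed a hairpin against Mical3. The third held cells with the insert-free vector, and the fourth untreated cells that received no vector. Transduced cells were selected with blasticidin, so untreated cells differ from the other groups by both virus and drug. All arrays share the SV40-transformed line, and the RNA on each was a pool of 3 biological replicates. The spread between replicates is therefore not visible, no test could be run and no p-value is given. All values are log2 expression levels, or log2 differences where so named.

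Notch receptors are single-pass membrane proteins that are activated by ligands on a neighbouring cell. Cleavage by an ADAM protease and then by gamma-secretase frees the intracellular part, which binds the DNA-binding protein RBPJ in the nucleus and switches on genes of the HES and HEY families of repressors. In growing vessels Dll4 and Notch1 limit the number of tip cells, Jag1 opposes Dll4 in this role, and Notch activity is tied to arterial identity. Notch3 is best known from the smooth muscle cells and pericytes of the vessel wall.

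A gene was called higher or lower when it differed by at least 2-fold (a log2 difference of 1) and the highest of the compared levels reached a floor, set at 5.41 as the median over all probe sets and arrays. Against 2 controls, the difference from each had to pass in the same direction. The array medians lay between 5.4 and 5.44. The correlation between 2 arrays over all probe sets, which are not independent, was between 0.978 and 0.990, lowest for the array labelled Mical3 knock-down with the vector array. The targeted genes did not bear out the labels at the transcript level. The main probe set of Mical2, the actin-oxidising enzyme under study, read 5.53 on the array labelled Mical2 knock-down and 6.08 on the array labelled Mical3 knock-down, against 5.14 with the vector and 5.6 untreated. Mical3 read 6.83 on the array labelled Mical2 knock-down and 7.24 on the array labelled Mical3 knock-down, against 7.29 with the vector and 7.39 untreated. Both Mical2 probe sets had their lowest level on the array labelled as insert-free vector (5.14 and 4.64), and Mical3 had its lowest on the array labelled Mical2 knock-down. A swap of labels was not tested and cannot be judged with 1 array per group. The hairpin arrays are therefore named by their labels throughout, and the vector array is likewise the array so labelled.

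The endothelial label was checked against 10 marker genes. Kdr, Flt1, Eng and Esam reached the floor on all 4 arrays, while Pecam1, Cdh5, Tek, Tie1, Erg and Emcn lay below it on all 4. Of 10 genes typical of mural cells, Acta2, Cspg4, Tagln and Des reached the floor on every array and Pdgfrb on 3. The log2 of the summed level of the mural list was 14.2 on the array labelled Mical2 knock-down and 15.1 on the array labelled Mical3 knock-down, against 11.9 with the vector and 13.9 untreated. This sum is carried by Acta2 and Tagln, at 13.8 and 11.16 on the array labelled Mical2 knock-down and 14.49 and 13.45 on the array labelled Mical3 knock-down, against 11.61 and 6.47 with the vector and 13.67 and 10.27 untreated. Pdgfrb did not follow them, at 10.71 and 3.55 on the arrays labelled Mical2 and Mical3 knock-down, against 8.13 with the vector and 10.28 untreated. Cspg4 lay between 6.25 and 6.4 and Des between 6.58 and 6.97, and Rgs5, Myh11, Cnn1, Kcnj8 and Abcc9 stayed below the floor. The same sum of the endothelial list lay between 9.23 and 9.31 on the 4 arrays. Of 6 leukocyte genes Cd68, Csf1r and Cd3e reached the floor and Ptprc did not, and of 4 epithelial genes Epcam and Krt8 did on all arrays and Krt18 on 3, all but the vector array. Krt8 read 8.32 and 8.38 on the arrays labelled Mical2 and Mical3 knock-down, against 6.42 with the vector and 8.27 untreated, and Cd68 6.16 and 6.88, against 8.0 and 5.93. In pooled cells a change in the share of a cell type and a change in RNA per cell cannot be told apart.

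None of the 10 Notch genes passed the size rule in any of the 4 comparisons. The shares of all genes given beside such counts cover the genes that reach the floor on a compared array, while 3 of the 10 Notch genes (4 in comparisons without the vector array) do not reach it and could not be called. For the array labelled Mical2 knock-down against both controls the share of these genes called was 2.73% (329 of 12072), and for the array labelled Mical3 knock-down it was 3.87%. For the vector against the untreated array it was 5.83%, and between the 2 hairpin arrays 7.53%. At these shares a list of 10 genes holds few calls or none, so the absence of calls does not set the Notch genes apart from the rest. At a limit of 1.5-fold against both controls none of the 10 was called on either hairpin array, where 8.11% of all genes were called for the Mical2 label and 11% for the Mical3 label. With untreated cells as the only control and a limit of 2-fold none was called either, beside 3.89% and 5.67% of all genes, and with the vector as the only control 1 and 0 were, beside 10.7% and 11.8%. Over their 4 levels the main probe sets spanned between 0.23 (Dll4) and 1.0 (Notch2). Of the 10 genes, 6 were at or above the floor on all 4 arrays, Notch3 reached it on the vector array alone, and Notch4, Dll1 and Dll4 lay below it on all 4. Levels below the floor may be background, and their differences may be understated by the normalization, which was not tested.

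**Figure D1:**
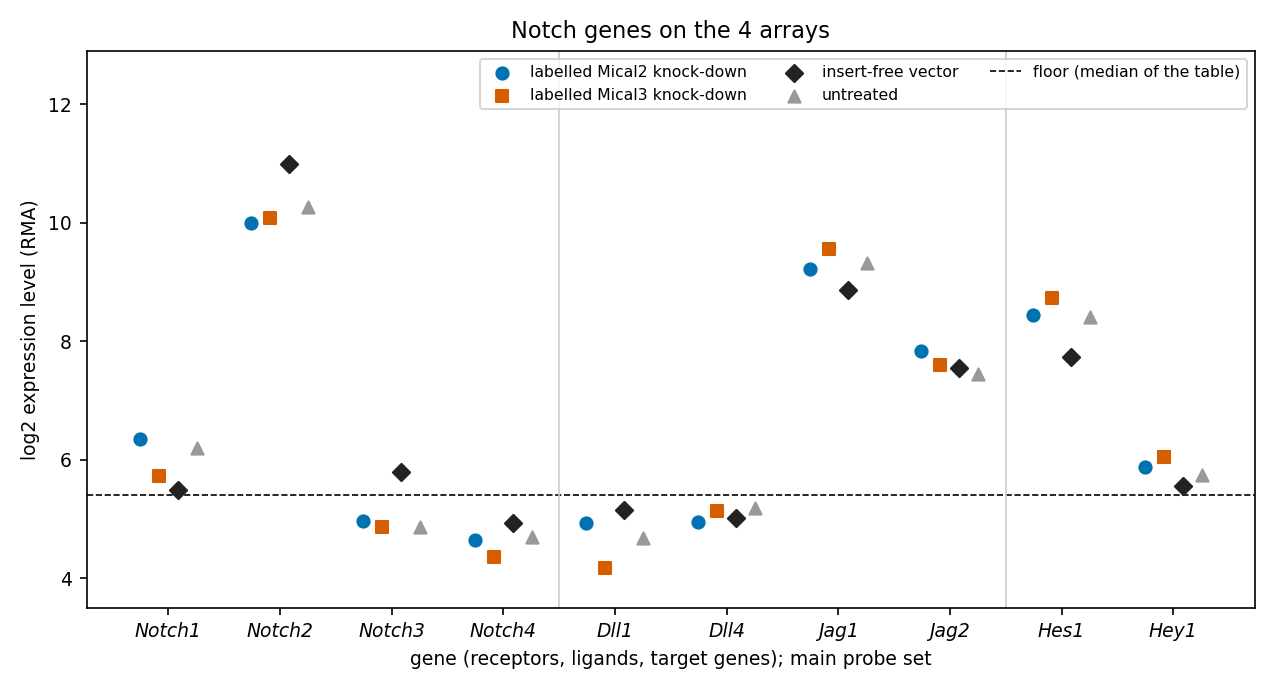
Log2 expression level (vertical axis) of the main probe set of each Notch gene (horizontal axis), 1 point per array, with the floor of 5.41 as a dashed line. Notch2 and Notch3 have their highest point on the vector array, at 10.99 and 5.8, and Hes1 and Jag1 their lowest, at 7.73 and 8.86, while Notch4, Dll1 and Dll4 stay under the line.

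Notch2, a receptor of many tissues, and Jag1, a ligand of the Jagged type, were a receptor and a ligand with levels well above the floor that deviated on the vector array in opposite directions. Their promoters are shown for that reason, as the 250 bases before the RefSeq start of each gene (build GRCm38.p6, read in the direction of the gene). Capitals mark the letters CACGNG on either strand, a site bound by HES and HEY repressors. The Notch2 window lies at chr3:98013288-98013537 on the plus strand and the Jag1 window at chr2:137116521-137116770 on the minus strand.
Notch2: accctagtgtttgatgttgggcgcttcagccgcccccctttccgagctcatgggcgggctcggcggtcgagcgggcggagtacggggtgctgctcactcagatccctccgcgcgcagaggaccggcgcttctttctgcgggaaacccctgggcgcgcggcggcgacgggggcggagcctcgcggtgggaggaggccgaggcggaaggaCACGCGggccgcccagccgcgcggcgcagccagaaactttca
Jag1: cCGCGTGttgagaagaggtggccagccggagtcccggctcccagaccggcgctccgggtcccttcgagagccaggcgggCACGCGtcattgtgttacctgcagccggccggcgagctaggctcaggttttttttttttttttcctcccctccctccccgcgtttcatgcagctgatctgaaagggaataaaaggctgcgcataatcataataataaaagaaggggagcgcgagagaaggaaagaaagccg

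The Notch2 window holds 1 such site, from 42 to 37 bases before the start, and the Jag1 window 2, from 249 to 244 and from 171 to 166 bases before it. The promoter table held 9 windows of 8 of the Notch genes (all but Hes1 and Hey1), and 6 of these windows, of Dll1 (2 windows), Dll4, Jag1, Notch2 and Notch3, had a match, against 23.5% of the 32851 windows of the same length in the table. Base composition differs as well, since the Notch2 window is 72% G and C and the Jag1 window 57.2%, against a median of 52.4% over the table. The site itself contains the letters CG. They occur 34 times in the Notch2 window and 20 times in the Jag1 window, against a median of 6. The RBPJ core TGGGAA was in none of the 9 windows on either strand (21.6% of all windows), so the motifs do not overlap there. A match is a match of letters only.

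Among the receptors, Notch2 read 9.99 on the array labelled Mical2 knock-down and 10.08 on the array labelled Mical3 knock-down, against 10.99 with the vector and 10.26 untreated. The vector array was the high one, by 0.73 above the next, and the other 3 lay within 0.27 of each other. The difference of the array labelled Mical2 knock-down was -1.0 against the vector and -0.27 against untreated cells, and that of the array labelled Mical3 knock-down was -0.91 and -0.18. With only the vector as control the first of these just meets the 2-fold limit, and Notch2 is the 1 gene called in that way. The other Notch2 probe set lay below the floor and between 4.93 and 5.04, so it gives no second reading of this pattern.

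Notch3 had a similar shape near background. Its main probe set read 4.97 on the array labelled Mical2 knock-down and 4.87 on the array labelled Mical3 knock-down, against 5.8 with the vector and 4.86 untreated. The vector array stood 0.83 above the next, and the other 3 agreed within 0.11. This probe set has a name ending in _s_at, which marks probes that may detect more than 1 transcript, and the gene's other probe set stayed between 4.0 and 4.08. Of the mural genes given above, Acta2 and Tagln were lowest on the array where this probe set was highest, Pdgfrb was lowest on another, and the rest of that list differed little or lay below the floor. Their part in the Notch3 values was not tested.

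Notch1, the receptor through which Dll4 restrains sprouting, was read differently by its probe sets. The main one read 6.35 on the array labelled Mical2 knock-down and 5.73 on the array labelled Mical3 knock-down, against 5.48 with the vector and 6.2 untreated. The array labelled Mical2 knock-down and the untreated array were the high ones, 0.47 or more above the others. The second, with a mean close to that of the first (5.9 against 5.94), read 5.94, 5.85, 5.9 and 5.9 in the same order and showed no such split. Notch4, a receptor largely restricted to endothelium, lay below the floor with all 3 probe sets. Its main one read 4.64 and 4.36 on the arrays labelled Mical2 and Mical3 knock-down, against 4.93 with the vector and 4.69 untreated.

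Of the ligands, Jag1 read 9.22 on the array labelled Mical2 knock-down and 9.55 on the array labelled Mical3 knock-down, against 8.86 with the vector and 9.32 untreated. The vector array was lowest, 0.36 under the next. A second Jag1 probe set near the floor was also lowest on the vector array, with 5.35, 5.49, 4.57 and 5.24 on the same arrays, and the third, between 4.6 and 4.82, was not. In difference from the untreated array, the vector array was at -0.46 by the main and -0.67 by the second probe set.

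Jag2, the other Jagged ligand, had its highest level on the array labelled Mical2 knock-down by both of its probe sets. The main probe set read 7.83 there and 7.59 on the array labelled Mical3 knock-down, against 7.54 with the vector and 7.45 untreated. The second probe set read 6.33 and 5.6, against 5.63 and 5.56. Its difference from vector and untreated cells was 0.29 and 0.38 by the main probe set, and 0.7 and 0.77 by the second. The second would pass a limit of 1.5-fold against both controls, and the main one does not.

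The Delta ligands lay below the floor on all 4 arrays. Dll4, the tip cell ligand, read 4.95, 5.14, 5.01 and 5.18 by its main probe set on the arrays labelled Mical2 knock-down, Mical3 knock-down, vector and untreated. These 4 levels lie within 0.23 of each other and under the floor, and its second probe set lay between 4.55 and 5.05. Dll1, another Delta ligand, had 1 probe set, at 4.93 and 4.18 on the arrays labelled Mical2 and Mical3 knock-down, against 5.15 with the vector and 4.67 untreated. Its lowest level was on the array labelled Mical3 knock-down, but all 4 lie under the floor.

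The target genes have 1 probe set each. Hes1, a repressor switched on by Notch and by other signals, read 8.44 on the array labelled Mical2 knock-down and 8.72 on the array labelled Mical3 knock-down, against 7.73 with the vector and 8.41 untreated. The vector array was the low one, by 0.68, and the other 3 lay within 0.31 of each other. The difference from the vector array was 0.71 on the array labelled Mical2 knock-down and 0.99 on the array labelled Mical3 knock-down, while from the untreated array it was 0.03 and 0.31. Hey1, a related repressor prominent in arterial endothelium, had the same order of arrays over a smaller span. It read 5.87 and 6.04 on the arrays labelled Mical2 and Mical3 knock-down, against 5.55 with the vector and 5.74 untreated, a span of 0.49.

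**Figure D2:**
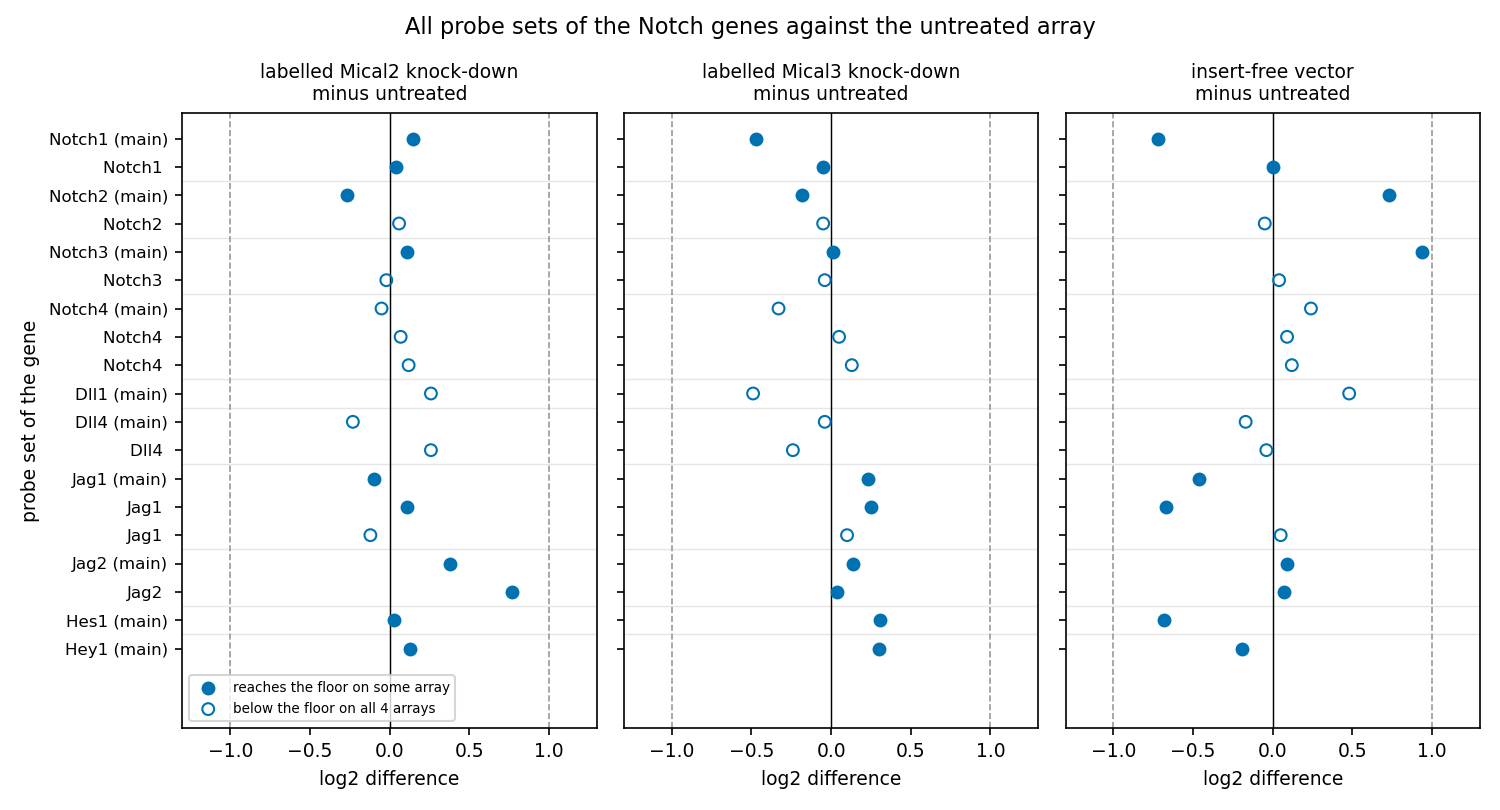
Log2 difference from the untreated array (horizontal axes) for all 19 probe sets of the Notch genes (rows), with filled points for those that reach the floor on some array, open points for those that do not and dashed lines at the 2-fold limit. On the vector array, in the third panel, the filled points of Notch2 and Notch3 lie at 0.73 and 0.94 and those of Jag1 and Hes1 at or left of -0.46, and no point crosses a dashed line in any panel.

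In the comparison of the vector with the untreated array, which by its labels measures transduction and selection together, the Notch genes differed in both directions. The median absolute difference was 0.47 over the 10 genes and 0.24 over the 12166 genes that reach the floor on some array, while the signed medians were -0.04 and 0.03, with 5 genes higher and 5 lower. The 10 genes include Notch4, Dll1 and Dll4, which do not reach the floor, so the 2 sets are not alike. At a limit of 1.5-fold, 4 of the 10 would be called, Notch2 and Notch3 higher and Notch1 and Hes1 lower, beside 17.6% of all genes. Notch3 could be called, and counts among the genes that reach the floor, only through its high level on the vector array. Single differences of this size are not rare. Of all genes that reach the floor, 11.6% differed in either direction by at least as much as Notch2, 13.4% by as much as Hes1 and 6.75% by as much as Notch3. In vector minus untreated, the other probe set of Notch1 gave 0. Those of Notch2 and Notch3, below the floor, gave -0.05 and 0.04. The standard deviation between 2 probe sets of 1 gene in vector minus untreated, divided by the square root of 2, was 0.27 (5510 genes). It stands for the scatter of 1 probe set on the same arrays and leaves out the spread between cultures.

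**Figure D3:**
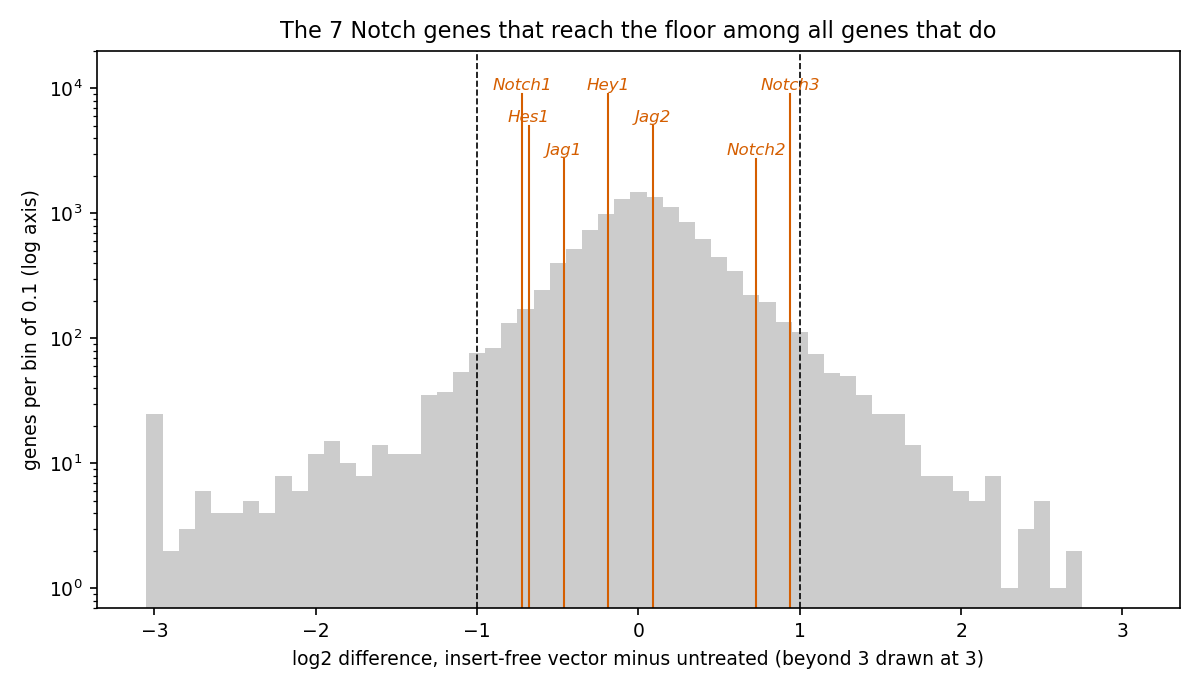
Number of genes (vertical axis, log scale) by log2 difference of the vector from the untreated array (horizontal axis), for the 12166 genes that reach the floor on some array, with lines for the 7 Notch genes among them and dashed lines at the 2-fold limit. Notch1, Hes1 and Jag1 lie left of 0 at -0.72, -0.68 and -0.46 and Notch2 and Notch3 right of it at 0.73 and 0.94, all inside the dashed lines.

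In the Notch genes both hairpin arrays lay further from the vector array than from untreated cells. For the array labelled Mical2 knock-down the median absolute difference over the 10 genes was 0.34 against the vector and 0.14 against untreated cells, with 0.31 and 0.21 over all genes that reach the floor. For the array labelled Mical3 knock-down it was 0.63 and 0.265, with 0.33 and 0.23 over all genes. These comparisons share their control arrays and are not independent. The 10 genes again include Notch4, Dll1 and Dll4, which do not reach the floor. Counting, after the values had been seen, the genes whose level on 1 array lay at least 0.5 outside the range of the other 3, the vector array held Notch2, Notch3 and Hes1, and none of the other 3 arrays held a Notch gene. Of these, Notch3 reached the floor on the vector array alone. At a gap of 0.25 the vector array held 5 of the 10, beside 28.5% of all genes, and the array labelled Mical3 knock-down held 3 (Hes1, and Notch4 and Dll1 below the floor), beside 21.9%. At the gap of 0.5 the share over all genes was 12.1% for the vector array, 6.17% for the array labelled Mical2 knock-down, 8.85% for the array labelled Mical3 knock-down and 1.35% for the untreated array, so the vector array is the one that stands apart most often in general.

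Set against each other, without a control, the 2 hairpin arrays differed in the Notch genes about as much as in other genes. The median absolute difference was 0.26 over the 10 genes and 0.26 over all genes that reach the floor on some array of the series. On both hairpin arrays Notch3, Notch4, Dll1 and Dll4 lay below the floor, so the 2 sets are not alike. The differences, Mical2 label minus Mical3 label, went up in 5 genes and down in 5, with a median of 0.005, and ran from -0.33 (Jag1) to 0.75 (Dll1, below the floor on both arrays). At a limit of 1.5-fold Notch1 alone would be called, as higher, with a difference of 0.62 by its main and 0.09 by its other probe set, beside 19.2% of all genes.

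The rest of the pathway was followed in 50 further genes, of which 48 were measured by a probe set with 1 symbol and 41 reached the floor. None was called on either hairpin array against both controls, or between the hairpin arrays. In the vector array against the untreated array 1 of the 48 was called, Efnb2, as lower, where 5.83% of all genes that reach the floor were called. In the comparisons without a call the shares of all genes were 2.73%, 3.87% and 7.53%. Only the 41 genes that reach the floor could be called. Whether so few calls differ from these shares was not tested. Their median difference was -0.14 for the array labelled Mical2 knock-down and -0.08 for the array labelled Mical3 knock-down when set against the vector, and -0.005 and -0.015 when set against untreated cells. It was 0.105 for vector minus untreated. Over all genes that reach the floor the medians were -0.04, -0.03, -0.03, 0.01 and 0.03 in the same order. The 48 genes include some that do not reach it.

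Efnb2 encodes ephrin-B2, a membrane ligand of arterial endothelium whose gene is induced by Notch. It read 11.12 on the array labelled Mical2 knock-down and 11.47 on the array labelled Mical3 knock-down, against 9.44 with the vector and 10.98 untreated. The vector array was the low one, as for Hes1 and Jag1. The difference of the vector from the untreated array was -1.54, and a second well-detected probe set (9.9, 10.29, 8.01 and 9.73 in the same order) gave -1.72. The other 2 Efnb2 probe sets had means below the floor and gave -0.35 and -0.08. Unc5b, a netrin receptor of arterial and tip cells, read 10.0, 10.17, 9.25 and 9.95 in the same order, again lowest with the vector but by less than 2-fold. Gja4 and Gja5, arterial connexins, stayed below the floor, and Nr2f2, a venous factor that opposes Notch, read 9.76 and 9.44, against 9.09 with the vector and 9.66 untreated.

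**Figure D4:**
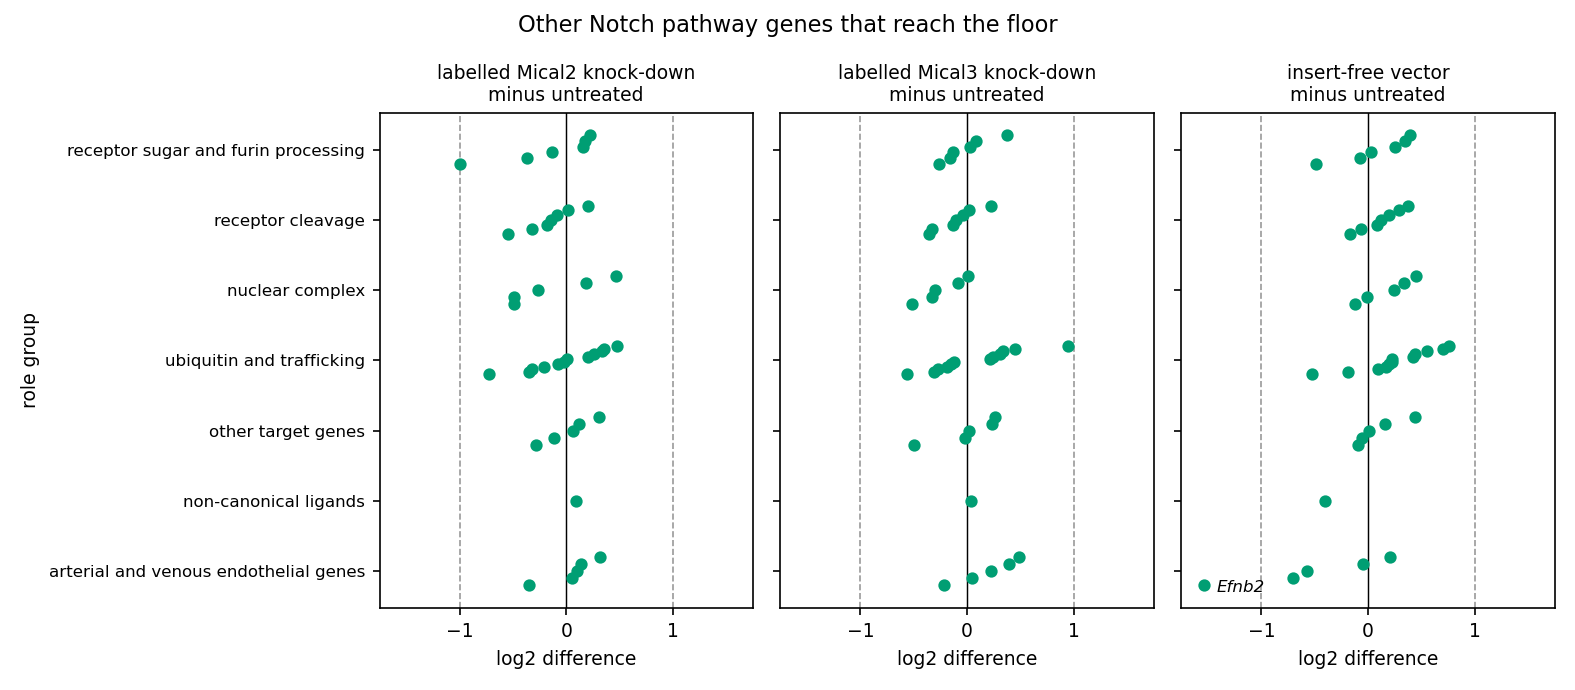
Log2 difference from the untreated array (horizontal axes) for the 41 other pathway genes that reach the floor, in rows by role, with dashed lines at the 2-fold limit. Efnb2, at -1.54 on the vector array, is the only point beyond a line, and Poglut1, at -1.0 on the array labelled Mical2 knock-down, lies on one.

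Among the genes that process receptors, all 6 for sugar modification and furin cleavage reached the floor. Poglut1, which adds glucose to the receptors, read 7.96 on the array labelled Mical2 knock-down and 8.8 on the array labelled Mical3 knock-down, against 8.88 with the vector and 8.96 untreated. It was lowest on the array labelled Mical2 knock-down, with a difference of -0.92 against the vector and -1.0 against untreated cells, and so missed the rule on 1 control. Rfng, a Fringe sugar transferase, read 8.7 and 9.1, against 9.32 and 9.07. Lfng, another Fringe, read 7.26 and 7.45, against 6.59 with the vector and 7.08 untreated, lowest with the vector.

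The 7 measured genes of the cleavage machinery spanned at most 0.77 over the 4 arrays, with Psenen, a gamma-secretase subunit, at 12.36 and 11.98, against 12.71 and 12.34. In the nuclear complex Rbpj read 9.58 on the array labelled Mical2 knock-down and 9.12 on the array labelled Mical3 knock-down, against 9.1 and 9.11 on the control arrays, and Snw1, a cofactor of the complex, read 11.14 and 10.62, against 11.4 and 10.95. The 12 ubiquitin and trafficking genes spanned at most 1.01 over the 4 arrays. Neurl1b, a ubiquitin ligase that acts on ligands, read 7.36 on the array labelled Mical3 knock-down, against 6.63 and 6.41 on the control arrays, and 6.61 on the array labelled Mical2 knock-down. Dtx2, a Deltex ubiquitin ligase, read 9.74 and 10.37, against 9.53 and 10.06.

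No other HES or HEY gene was called. Hes6, which acts against Hes1, read 8.64 and 8.42, against 9.08 with the vector and 8.92 untreated. Nrarp, a feedback inhibitor induced by Notch, read 6.07 and 5.99, against 5.67 and 5.76, both hairpin arrays above both controls by at most 0.4. Hey2 read 3.33 on the array labelled Mical2 knock-down and 4.79 on the array labelled Mical3 knock-down, against 3.71 and 3.62. The second of these is more than 2-fold above both controls, but all 4 levels lie below the floor and the rule did not apply. Of the 4 non-canonical ligands only Dlk2 reached the floor, at 7.94 and 7.89, against 7.45 and 7.85.

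Notch2 was the only member that spanned a log2 range of 1 while reaching the floor. The genes most like it over the 4 arrays, by the largest deviation after each gene's mean was removed, were Psd3 (0.0275) and Nbr1 (0.04), and 309 of 12165 genes lay within 0.2. The 2 named genes are the closest of the 12165 compared, and with 4 arrays such likeness describes these arrays only.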

How the data were processed

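Total RNA was labelled with biotin and hybridised to 3' expression arrays, 1 per group. The deposited values are log2 levels per probe set that the authors computed with RMA, per the submitters' processing notes; version and settings: not given in the sources used here. They were used without further scaling.

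Of 45101 probe sets, 64 manufacturer controls were left out and 34945 had exactly 1 symbol, of which 34741 were updated through Entrez identifiers against RefSeq GRCm38.p6. Those with several symbols (932) or without any (9160) were not used. Groups came from the condition in the labels. With 1 array per group genes were called by size. The number of arrays limits the precision. The rule was tested on simulated data. Alternatives varied the control, the fold limit, the floor, the probe set choice, the scaling and the linear offset. Named genes are all members, the other pathway genes called in any comparison, 1 gene per role group with the highest mean, and the 2 genes most like a member that spans 1 or more. Other genes in the text (Poglut1, Neurl1b, Lfng, Rbpj, Unc5b, Nr2f2, Nrarp, Hey2, Gja4, Gja5, Itch, Dtx3, and the marker genes Krt8 and Cd68) were chosen after their values were seen. The members, lists and rules were chosen with earlier results of these data known. Of the 50 listed pathway genes, 2 were not analysed here. Python 3.11.15, numpy 2.4.6, pandas 2.3.3, statsmodels 0.14.6 and matplotlib 3.10.9 were used.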

Additional observations from a re-analysis of the deposited data

How the results depend on the processing

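Across 9 alternatives, the count of 0 Notch genes called held except in 3 cases. With only the vector as control 1 gene (Notch2, lower) was called on the array labelled Mical2 knock-down, and at 1.5-fold 4 were called for vector against untreated cells and 1 between the hairpin arrays. Beside these counts stand 10.7%, 17.6% and 19.2% of all genes that reach the floor. Among the 4, Notch3 reached the floor on the vector array alone. Of the other pathway genes, at 1.5-fold 2 were called on the array labelled Mical2 knock-down (Poglut1 and Itch, lower), 1 on the array labelled Mical3 knock-down (Neurl1b, higher), 4 for the vector and 5 between the hairpin arrays. The shares of all genes called at that limit were 8.11%, 11%, 17.6% and 19.2% in the same order. With only the vector as control 1 (Efnb2, higher) and 2 (Efnb2 higher, Dtx3 lower) were called on the arrays labelled Mical2 and Mical3 knock-down, and with the untreated array as the only control 1 (Poglut1, lower) on the array labelled Mical2 knock-down. For these settings the shares of all genes were 10.7%, 11.8% and 3.89%. Without a floor Hey2 was called on the array labelled Mical3 knock-down (1) and between the hairpin arrays (1). With the mean of all probe sets of a gene the Efnb2 call was lost (0), since 2 of its 4 probe sets lie near background. Single members depended most on the probe set. The limit for a move was the SD between 2 probe sets of a gene divided by the square root of 2. Of 54 differences read from another probe set of the same gene, 24 did not keep their sign and 25 moved by more than this limit. The same counts were 1 and 0 of 60 after a loess fit, and 7 and 9 of 60 with the mean of the probe sets. They were 0 and 2 of 60 with 16 added on the linear scale, and 2 and 3 of 60 without probe sets open to cross-hybridisation. Among the main probe sets only that of Notch3 was open to cross-hybridisation, so only its differences could change in that setting. The mean of the probe sets could not change Dll1, Hes1 and Hey1, which have 1 probe set each. No paired analysis was possible because each group has 1 array.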
